A study of Mus musculus with 12 samples.

Results

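The kidneys compared here came from C57BL/6 mice, a common inbred laboratory strain, given either vehicle or the compound 84-B10 together with cisplatin, and were taken 72 h after the injection. The question was what, in the pretreated kidneys, still differed from vehicle kidneys and what stood near the vehicle level. Both groups were chosen by their treatment labels and hold 4 libraries each, 8 of the 12 in the series, and all 19036 genes of the deposited table were considered, of which 12428 entered the tests. The vehicle group received an intraperitoneal injection of saline. The pretreated group, called the combination group here, received 84-B10 at 15 mg/kg for 48 h before 25 mg/kg of cisplatin, and the labels add that dosing went on daily afterwards. The remaining 4 libraries, labelled cisplatin, entered the estimate of the spread and are quoted for some genes. The labels differ on whether that group was also pretreated. Mice treated with 84-B10 alone were not analysed here, so in the comparison with vehicle the effects of cisplatin and of 84-B10 cannot be told apart. The labels state neither sex nor age, nor the hour at which kidneys were taken.

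Cisplatin is a platinum chemotherapy drug that binds DNA and is taken up by proximal tubule cells, the segment that reabsorbs most of the filtered solutes. Injured tubule cells are known to lose transporters and mitochondrial enzymes, to switch on secreted and surface injury proteins, and to activate p53, the transcription factor of the DNA damage response. Ferroptosis is an iron-dependent death by lipid peroxidation, which the peroxidase Gpx4 restrains.

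Values are FPKM, fragments scaled for transcript length and for the size of the library, tested as log2(FPKM + 1) with limma. A gene passed at an adjusted p under 0.05. Pairs of values joined by "against" give vehicle first and combination second, and a value in parentheses after a gene is its log2 fold change, combination minus vehicle. Estimated counts totalled 15.76 to 16.52 M in vehicle and 17.47 to 18.17 M in combination libraries. Kap, an androgen-responsive proximal tubule gene, took 11.01 to 12.3% of all FPKM in vehicle libraries and 0.927 to 1.22% in combination libraries. Median-of-ratios scaling, which sets the typical gene equal between libraries, lowered the fold changes by a median of 0.244 on the log2 scale. Directions of small changes can turn with the scaling, and list counts and calls are given under it where they moved.

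Most of the transcriptome differed from vehicle in pretreated kidneys. Of the 12428 genes, 9847 passed (79.2%), 7037 of them higher (56.6%) and 2810 lower (22.6%), and 2581 did not. With median-of-ratios scaling 4918 were higher (39.6%) and 4425 lower (35.6%), so the share of higher genes among the calls went from 71.5 to 52.6%. At least 2-fold higher were 1615 genes (13.0%) and at least 2-fold lower 687 (5.53%). The 4 combination and 4 vehicle libraries did not overlap for 9301 genes (74.8%), of which 6701 were higher (53.9%) and 2600 lower (20.9%). A separate equivalence test asked which of the 8659 genes with a mean of at least 5 FPKM lay within 1.5-fold of vehicle in either direction. It held for 4104 genes (47.4%) with the deposited FPKM and for 3338 (38.5%) under both scalings. A gene can both pass and be held: 2540 genes differed from vehicle by a small amount that was inside the margin. Of the 1000 genes with the highest mean over the 8 libraries, 434 were higher, 421 lower and 244 held under both scalings.

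**Figure D1:**
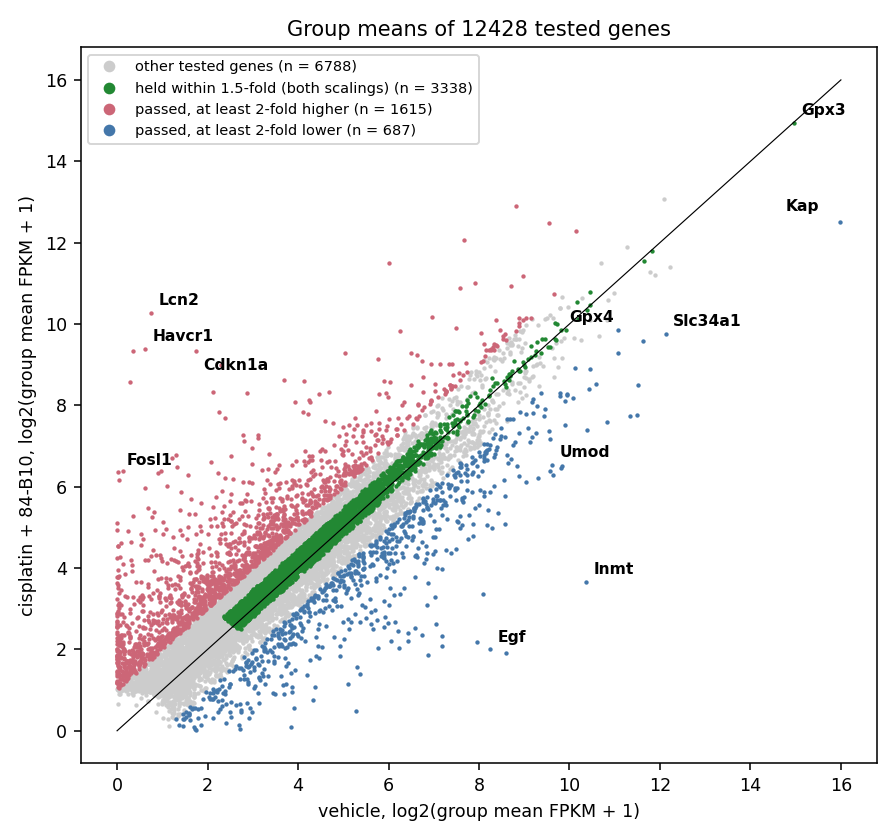
Each point is 1 of 12428 tested genes, with its vehicle mean on the horizontal and its combination mean on the vertical axis, both as log2(group mean FPKM + 1), and the line marks equal values. The 1615 genes at least 2-fold higher (red) include Havcr1, Lcn2 and Fosl1 far from the line, the 687 at least 2-fold lower (blue) include Kap, Inmt and Egf, and Gpx3 and Gpx4 lie among the 3338 genes held under both scalings (green).

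Genes of tubular injury remained far above vehicle. Havcr1 (NCBI gene 171283), the gene of kidney injury molecule 1 on proximal tubule cells, read 0.18, 0.5, 1.11 and 0.34 FPKM in vehicle libraries 1 to 4 and 807.78, 548.79, 646.92 and 665.36 FPKM in combination libraries 1 to 4. Every combination library stood far above every vehicle library. The log2 fold change was 8.79 (SE 0.16, adjusted p = 4.86e-14, limma). Lcn2 (NCBI gene 16819), which encodes the secreted injury marker neutrophil gelatinase-associated lipocalin, read 0.24, 0.54, 0.39 and 1.58 FPKM against 819.84, 1631.2, 1560.2 and 948.46 FPKM. Its combination libraries differed among themselves, with 2 and 3 above 1 and 4, and the groups did not overlap (log2 fold change 9.52, SE 0.29, adjusted p = 4.06e-12). Sprr1a (NCBI gene 20753), a cornified envelope protein gene, had the second highest fold change under the naming rule at 9.0 (SE 0.12), from 0.273 ± 0.229 to 647 ± 71.6 FPKM (mean ± SD, n = 4). Krt20, a keratin (8.30), S100a6, a calcium-binding protein (6.68), and Fgg, the fibrinogen gamma chain (6.17), were also among the 8 highest. All 30 measured members of the tubular injury list were higher, 29 of them at least 2-fold, with a median of 3.62 against 0.263 over all tested genes. Their summed level was 1165 to 1269 FPKM in vehicle and 15274 to 22023 FPKM in combination libraries, and 15130 to 22843 FPKM in the cisplatin libraries.

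**Figure D2:**
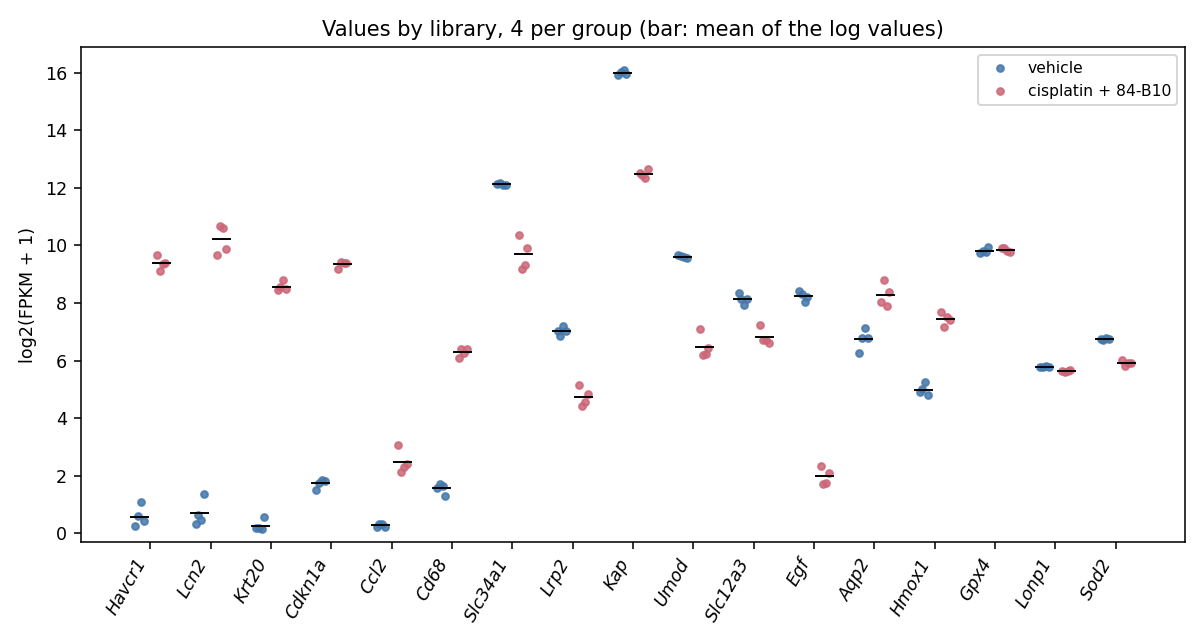
Each point is 1 library, as log2(FPKM + 1), for 17 genes chosen as anchors, with 4 vehicle (blue) and 4 combination (red) libraries per gene and a bar at the mean of the log values. The injury genes at the left rise from near 0, the tubule genes Slc34a1, Kap, Umod and Egf fall, and Gpx4 overlaps between the groups.

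Fosl1 (NCBI gene 14283), which encodes a subunit of the AP-1 transcription factor, read 0, 0.04, 0 and 0.04 FPKM in vehicle libraries and 84.66, 72.9, 81.52 and 83.01 FPKM in combination libraries. It was close to undetected in every vehicle library and narrow in range in the pretreated ones (6.32, SE 0.05, adjusted p = 3.28e-17). It was also higher than in the cisplatin libraries, which stood at 60.7 ± 2.16 FPKM (0.40, SE 0.05, adjusted p = 0.000921).

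The promoters of the changed genes were searched for motifs to give this sequence context. Promoters, from 250 bases before to 50 after the start, were taken from RefSeq on GRCm38.p6, and 9982 of the 12428 tested genes had 12763 of them. The AP-1 motif TGANTCA, on either strand, was present in 9.80% of 1643 promoters of genes at least 2-fold higher, 4.90% of 694 of those at least 2-fold lower, 3.95% of 3545 of genes held under both scalings and 5.41% of all. NF-kB motifs, which the inflammatory factor of that name binds, were present in 1.22%, 0.720%, 0.395% and 0.509% in the same order. Motifs of HNF1, a transcription factor of the proximal tubule, were searched as a pair of patterns that overlap in what they match. They were found in 1, 6, 2 and 13 promoters. The TATA box letters TATAAA were present in 11.3%, 12.0%, 5.67% and 7.58%. These are shares of letter matches and were not tested. The promoter of Sprr1a is shown because it belongs to a gene that went from near 0 to a mean of 647 FPKM and holds the AP-1 motif at more than 1 position. It lies at chr3:92485832-92486131 on the minus strand of GRCm38.p6, read 5′ to 3′, with AP-1 motifs starting 146 and 116 bases and a TATA box 43 bases before the start in capitals:
Sprr1a: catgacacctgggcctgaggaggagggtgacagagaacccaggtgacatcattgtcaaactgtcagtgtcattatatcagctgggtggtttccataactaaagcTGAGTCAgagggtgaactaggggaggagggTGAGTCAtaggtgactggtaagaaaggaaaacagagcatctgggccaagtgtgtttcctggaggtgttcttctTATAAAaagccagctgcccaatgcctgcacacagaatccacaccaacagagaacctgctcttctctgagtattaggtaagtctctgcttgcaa
The macrophage gene Cd68, described below, holds the motif at a pair of places, shown with 15 bases either side, on the minus strand of chromosome 11 at chr11:69666298-69666334 and chr11:69666173-69666209, 149 and 24 bases before the start:
Cd68 first: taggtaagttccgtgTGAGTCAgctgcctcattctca
Cd68 second: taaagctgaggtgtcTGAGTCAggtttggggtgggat

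The p53 response also remained. Cdkn1a (NCBI gene 12575), the cell cycle inhibitor p21, read 1.86, 2.34, 2.64 and 2.53 FPKM in vehicle libraries and 582.11, 677.01, 663.36 and 663.85 FPKM in combination libraries, with combination 1 the lowest of its group (7.60, SE 0.08, adjusted p = 4.43e-16). Of 34 tested p53 targets 30 were higher, 26 of them at least 2-fold, and none was lower, with a median of 2.17. With median-of-ratios scaling 28 were higher and 4 lower. Phlda3, an inhibitor of Akt signalling, rose by 5.48 (SE 0.09). Xpc, a sensor of DNA lesions, did not pass (12.1 ± 0.6 against 11.8 ± 0.498 FPKM, adjusted p = 0.577) and was held within 1.5-fold, with a log2 fold change of -0.03 that became -0.28 under median-of-ratios scaling, where it passed. In the cell cycle list 22 of 26 tested genes were higher and none lower (median 0.73), or 20 and 2 with median-of-ratios scaling. The other 10 of its 36 genes did not reach 1 FPKM in at least 4 libraries. Pcna, the sliding clamp of DNA replication and repair, read 26.51, 25.73, 26.09 and 26.85 FPKM against 53.35, 52.57, 54.6 and 53.37 FPKM. The groups did not overlap, and the change was 0.997 (SE 0.05, adjusted p = 4.39e-10). The cyclin-dependent kinase gene Cdk6 rose by 1.33, and the cyclin gene Ccnd3 was held (62.7 ± 2.39 against 64.6 ± 2.51 FPKM), with a direction that turned with median-of-ratios scaling (-0.22).

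Inflammatory genes stood above vehicle as well. Of 26 tested members 25 were higher, 21 at least 2-fold, and 1 was lower, with a median of 2.19. Another 4 listed genes did not pass the filter on low values. Ccl2, the chemokine that draws monocytes, read 0.17, 0.25, 0.25 and 0.16 FPKM against 7.33, 3.42, 3.92 and 4.31 FPKM (2.21, SE 0.20). Combination 1 was the highest of its group, and all 4 were above vehicle. Cxcl2, a neutrophil chemokine, was listed at 0 in vehicle libraries 1, 3 and 4 and at 0.06 FPKM in library 2, against 10.9 ± 0.687 FPKM in combination libraries. Both Ccl2 and Cxcl2 read under 1 FPKM in all vehicle libraries and met that filter only through treated libraries. Their counts as higher were therefore favoured by the filter. Icam1, an endothelial and epithelial adhesion molecule, rose by 3.11 (SE 0.07). In the acute phase and fibrinogen list 19 of 20 members were higher and 1 lower (median 2.25), among them complement C3 (5.31). Interferon-induced genes were higher in 24 of 25 cases (median 1.47). Their highest member was Irf7, a transcription factor of the interferon response (2.64), and Ifi44 did not pass (3.22 ± 0.449 against 3.19 ± 0.665 FPKM, adjusted p = 0.919).

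Most tested markers of myeloid cells were higher than vehicle. Of 17 tested macrophage and neutrophil markers 12 were higher and 3 lower (median 1.07), and 7 others did not pass the filter on low values. Over all tested genes 56.6% were higher and 22.6% lower (median 0.263). The summed level of all 24 was 67.6 to 77.3 FPKM in vehicle and 231 to 274 FPKM in combination libraries. Cd68, a lysosomal protein abundant in macrophages, read 1.96, 2.29, 2.13 and 1.47 FPKM against 67.12, 83.18, 75.9 and 83.34 FPKM (4.73, SE 0.12), and Itgam, the integrin of macrophages and neutrophils, rose by 1.43 to 2.31 ± 0.414 FPKM. Itgam read under 1 FPKM in all vehicle libraries and met that filter only through treated libraries. Its count as higher was therefore favoured by the filter. The chemokine receptor gene Cxcr2 did not pass (0.20, adjusted p = 0.0700). Only 1 of 14 lymphocyte markers in the table passed the filter on low values, and their summed level was 5.68 to 8.47 FPKM in vehicle and 2.63 to 4.40 FPKM in combination libraries. The part of these cells in the inflammatory genes was not tested.

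Nearly all listed genes of the proximal tubule were lower. Slc34a1 (NCBI gene 20505), which carries phosphate across the brush border, read 4459.6, 4582.2, 4415.4 and 4391.8 FPKM in vehicle libraries and 1309.6, 577.29, 640.56 and 949.46 FPKM in combination libraries. Vehicle libraries were close together, while combination 1 held more than 2-fold the level of combination 2 and 3, and the groups did not overlap (-2.44, SE 0.26, adjusted p = 1.38e-06). All 32 tested genes of the convoluted proximal tubule fell, 23 at least 2-fold, with a median of -1.41, or -1.68 with median-of-ratios scaling. Pdzk1, a scaffold of brush border transporters (-1.94), the organic anion transporter Slc22a6 (-2.34) and the endocytic receptor Lrp2 (-2.28) were among them. Of 28 genes of the straight segment 27 fell, 25 at least 2-fold, and 1 rose, with a median of -2.25. In bulk tissue, fewer cells of a type and less RNA per cell cannot be told apart. The summed level of the convoluted list was 20379 to 20906 FPKM in vehicle libraries, 7749 FPKM in combination 1 and 4799 to 6070 FPKM in the other 3 combination libraries.

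The 8 largest falls under the naming rule included enzymes and transporters, along with Egf, described with the distal segments. Inmt (NCBI gene 21743), an indolethylamine methyltransferase, read 1294.7, 1273.8, 1193.4 and 1474 FPKM against 13.84, 10.23, 10 and 12.52 FPKM, with means that differed 112.4-fold (-6.70, SE 0.10, adjusted p = 9.06e-15). Slc7a13, an amino acid transporter of the straight tubule, read 360.11, 376.87, 416.82 and 390.17 FPKM against 3.53, 2.23, 2.46 and 2.79 FPKM (-6.70, SE 0.32). Outside those 8, Kap (NCBI gene 16483) fell from 65088 ± 3398 to 5776 ± 546 FPKM (-3.50, SE 0.15, adjusted p = 1.63e-10), and Cyp4b1, a cytochrome P450, from 2911 ± 87.8 to 364 ± 35.2 FPKM. The acetyltransferase genes Nat8f6 (-5.94) and Nat8f7 (-4.91), the glucuronosyltransferase gene Ugt2b37 (-5.18) and the transporter gene Slc22a28 (-5.15) belong to families of similar genes between which reads may be split, and each is uncertain on its own. The protease inhibitor gene Pzp, also one of the 8, fell by 4.78.

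Genes of the thick ascending limb and of the distal convoluted tubule were lower too, and those of the collecting duct much less so. Egf (NCBI gene 13645), the epidermal growth factor made by the thick ascending limb and distal tubule, read 340.13, 318.47, 259.53 and 291.49 FPKM in vehicle libraries and 4.07, 2.24, 2.38 and 3.3 FPKM in combination libraries, with means that differed 100.9-fold (-6.26, SE 0.18, adjusted p = 3.22e-12). Umod, which encodes uromodulin, the main urinary protein, read 803.2, 783.08, 781.69 and 746.86 FPKM against 134.12, 72.37, 73.48 and 86.41 FPKM, with combination 1 again the highest of the pretreated kidneys (-3.12, SE 0.23). Of 19 thick ascending limb genes 15 were lower, 12 at least 2-fold, and none higher (median -1.34), or 18 lower with median-of-ratios scaling. The calcium-sensing receptor gene Casr fell by 1.98, and Kng2, a kininogen, did not pass (-0.18, adjusted p = 0.114). It passed under median-of-ratios scaling (-0.44). It also passed, at the same -0.18, when cisplatin library 3 was left out and in a fit of the 8 libraries alone.

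In the distal convoluted tubule 14 of 19 genes were lower and 4 higher, or 15 and 1 with median-of-ratios scaling. Slc12a3, the thiazide-sensitive salt transporter, read 327.08, 281.84, 241.93 and 282.49 FPKM against 148.94, 103.85, 104.2 and 97.22 FPKM (-1.32, SE 0.27, adjusted p = 0.000487). The calcium-binding protein gene Pvalb (-3.61) and the monocarboxylate transporter gene Slc16a7 (-1.62) fell, and Atp2b4, a plasma membrane calcium pump, did not pass (-0.08, adjusted p = 0.320) but passed as lower with median-of-ratios scaling (-0.29, adjusted p = 0.00211).

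Among 17 principal cell genes 6 were higher and 4 lower, and 6 of 15 that could be tested for it were held under both scalings, a share near the 38.5% of all genes. With median-of-ratios scaling 6 were higher and 7 lower. The list median was 0.10 and turned to -0.17 with median-of-ratios scaling. Aqp2, the vasopressin-regulated water channel, read 75.56, 108.72, 140.13 and 108.86 FPKM against 260.12, 444.07, 236.4 and 336.18 FPKM, a rise with wide scatter in both groups (1.54, SE 0.20, adjusted p = 9.32e-06). The potassium channel gene Kcnk1 (1.46) and the sodium channel subunit gene Scnn1b (0.73) also rose. Hsd11b2, the enzyme that shields the mineralocorticoid receptor from cortisol and corticosterone, was held at 93.7 ± 12.8 against 92.0 ± 7.09 FPKM, and passed as lower with median-of-ratios scaling (-0.28, adjusted p = 0.0111). Of 18 intercalated cell genes 2 were higher and 8 lower, or 1 and 12 with median-of-ratios scaling, and 5 of 14 were held under both, again near that share. The ammonia transporter gene Rhcg (-0.88) and the carbonic anhydrase gene Car12 (-1.05) fell, while Car2, another carbonic anhydrase, stood at 267 ± 14.8 against 281 ± 19.1 FPKM and was held, a difference whose direction turned with median-of-ratios scaling (-0.20).

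**Figure D3:**
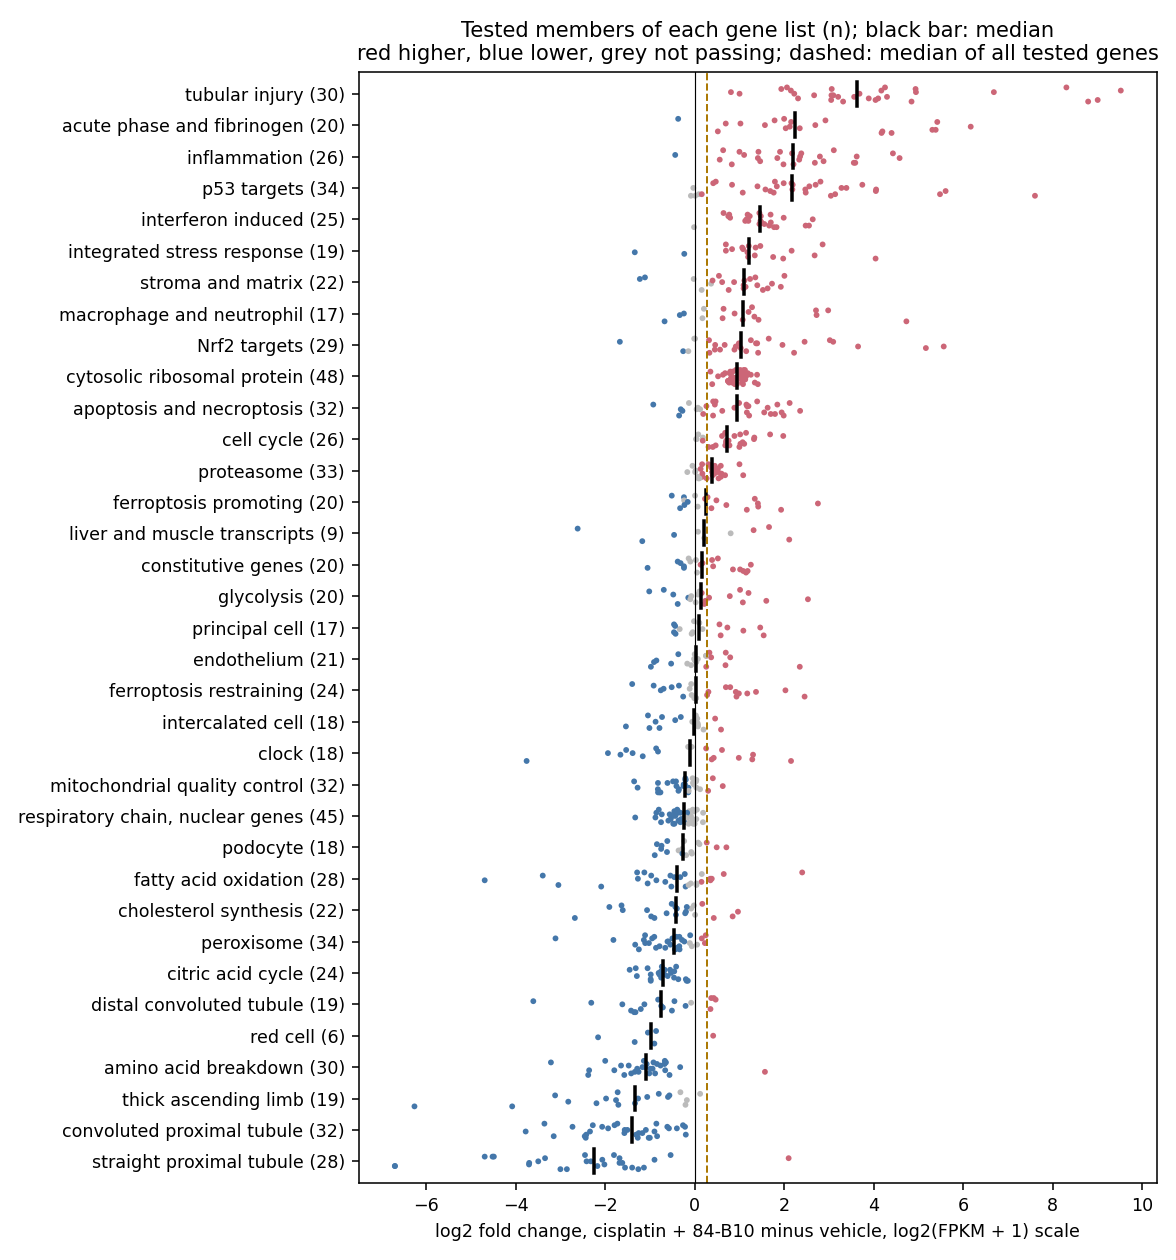
Each row is a gene list with its number of tested members, each point a member's log2 fold change from vehicle to combination, and the black bar the list median, with red for higher, blue for lower and grey for genes that did not pass. The tubular injury list has the highest median at 3.62 and the straight proximal tubule list the lowest at -2.25, while the dashed line marks the median of all tested genes at 0.263.

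Outside the tubule, podocyte genes were higher in 3 and lower in 7 of 18 cases (median -0.26), or 2 and 13 with median-of-ratios scaling. Their highest member was Nes, an intermediate filament gene (0.71), and their lowest Clic5, a protein of podocyte foot processes (-0.89). Of 21 endothelial genes 8 were higher and 5 lower, or 4 and 9 with median-of-ratios scaling, with the tissue plasminogen activator gene Plat highest (2.35) and the endothelial proteoglycan gene Esm1 lowest (-0.98). Over all tested genes 56.6% were higher and 22.6% lower, or 39.6% and 35.6% with that scaling. The share of higher genes was thus smaller in the podocyte and endothelial lists than over all tested genes. Stromal and matrix genes were higher in 17 and lower in 2 of 22 cases (median 1.09), or 15 and 2 with median-of-ratios scaling. They ran from the matricellular gene Ccn2 (2.00) to the metalloproteinase inhibitor gene Timp3 (-1.23), which fell from 521 to 221 FPKM. The summed level of the list did not rise, at 695 to 818 FPKM in vehicle and 627 to 725 FPKM in combination libraries. Haemoglobin and red cell genes were lower in 5 of 6 cases, and their summed level was 1382 to 1412 FPKM in vehicle and 333, 753, 920.4 and 558 FPKM in combination libraries 1 to 4. Combination 1 was thus the lowest of the 4 for red cell genes and the highest for the convoluted proximal tubule. Transcripts typical of liver and muscle summed to 128 to 223 FPKM in vehicle and 86.1 to 96.0 FPKM in combination libraries. Their members did not move together: 3 of 9 were higher and 3 lower, from the apolipoprotein gene Apoc3 (2.11) to the transthyretin gene Ttr (-2.62), and the median was 0.21. Those typical of adrenal and fat summed to 28.1 to 44.7 and 44.3 to 65.8 FPKM, with Cyp11b1, an adrenal cortex enzyme, at 0 in all 8.

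Mitochondrial metabolism was lower in a graded way. All 24 citric acid cycle genes fell, 4 of them at least 2-fold, with a median of -0.71. Idh2, the mitochondrial NADP-dependent isocitrate dehydrogenase, fell from 274 ± 18.1 to 109 ± 7.97 FPKM (-1.32, SE 0.07, adjusted p = 1.35e-09), and Sucla2, a succinyl-CoA synthetase subunit, by 0.99. Of 28 fatty acid oxidation genes 17 were lower and 6 higher (median -0.39), or 20 and 3 with median-of-ratios scaling. Of the 28, 13 were held with the deposited FPKM and 8 under both scalings. Over all genes entered in that test the shares were 47.4% and 38.5%. Acsm3, which activates medium-chain fatty acids, fell by 4.69 and its relative Acsm1 by 2.09, whereas Ech1, an enoyl-CoA isomerase, did not pass (341 ± 18.7 against 310 ± 33.7 FPKM, adjusted p = 0.158). It passed as lower with median-of-ratios scaling (-0.41, adjusted p = 0.00151). Of 45 nuclear genes of the respiratory chain 26 were lower and none higher, or 41 lower with median-of-ratios scaling. Within the margin were 31 of the 45 with the deposited FPKM and 13 under both scalings. The former share was above the 47.4% of all genes entered, and the latter was below their 38.5%. The complex I subunit gene Ndufs1 was lowest (-1.33), and Cox8a, a subunit of complex IV, read 1365, 1442.6, 1423.7 and 1391 FPKM against 1406.1, 1465.5, 1472.5 and 1279.9 FPKM. The groups overlapped, and the 95% interval of its log2 fold change ran from -0.18 to 0.17.

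Peroxisomal genes were lower in 28 and higher in 3 of 34 cases (median -0.47), or 31 and none with median-of-ratios scaling, with Amacr, a racemase of branched-chain acyl-CoA, lowest (-3.11). Amino acid breakdown genes were lower in 29 of 30 cases (median -1.09). The glycine decarboxylase gene Gldc was the member that rose (1.57). In the mitochondrial quality control list 21 of 32 genes were lower and 3 higher, or 28 and 2 with median-of-ratios scaling. Of 31 that entered the equivalence test, 21 were held with the deposited FPKM and 14 under both scalings. Over all genes entered the shares were 47.4% and 38.5%. Lonp1, a protease of the mitochondrial matrix, read 53.21, 53.6, 54.84 and 53.94 FPKM against 48.69, 47.22, 48.64 and 49.89 FPKM. It passed as lower by a small amount (-0.15, SE 0.04, adjusted p = 0.00541) and was also held within 1.5-fold under both scalings. Its call depended on the scaling: it did not pass after rescaling to TPM (adjusted p = 0.0678). With median-of-ratios scaling it was lower by more (-0.41, adjusted p = 1.26e-06), as with edgeR (-0.43) and DESeq2 (-0.44). Sod2, the superoxide dismutase of mitochondria, fell from 106 ± 1.37 to 59.7 ± 3.81 FPKM (-0.82, SE 0.07), and Sirt3, a mitochondrial deacetylase, by 1.35. Of 20 glycolysis genes 10 were higher and 5 lower, near the 56.6% and 22.6% over all tested genes. With median-of-ratios scaling 6 were higher and 9 lower, against 39.6% and 35.6% of all. Of 19 entered, 11 were held with the deposited FPKM and 10 under both, against 47.4% and 38.5% of all genes entered.

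Among the antioxidant genes under Nrf2, the transcription factor of the electrophile response, 24 of 29 were higher and 2 lower (median 1.03), or 21 and 5 with median-of-ratios scaling. Hmox1, haem oxygenase, read 28.67, 31.14, 37.63 and 26.8 FPKM against 205.99, 141.65, 182.01 and 169.82 FPKM (2.45, SE 0.12, adjusted p = 5.33e-10). The aldo-keto reductase gene Akr1b8 (5.16) and the epoxide hydrolase gene Ephx1 (3.65) rose more. Cell death genes were higher in 24 and lower in 4 of 32 cases (median 0.94), or 21 and 7 with median-of-ratios scaling, with the apoptosis inhibitor gene Birc3 highest (2.35) and Aifm1, a mitochondrial flavoprotein, lowest (-0.93).

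The ferroptosis lists moved both ways, and their balance turned with the scaling, which also shifted the balance over all tested genes. Of 24 restraining genes 11 were higher and 7 lower (median 0.03), or 9 and 12 (median -0.19) with median-of-ratios scaling. Of 21 entered, 9 were held with the deposited FPKM and 7 under both scalings. Of 20 promoting genes 11 were higher and 5 lower (median 0.26), or 8 and 9 (median -0.002) with that scaling. Of 15 entered, 9 were held with the deposited FPKM and 5 under both. Over all tested genes 56.6% were higher and 22.6% lower (median 0.263), or 39.6% and 35.6% with median-of-ratios scaling. Of all genes entered, 47.4% were held with the deposited FPKM and 38.5% under both. The higher and lower shares of the promoting list with the deposited FPKM were thus near those of all genes. Gpx4 (NCBI gene 625249) read 841.47, 903.01, 880.22 and 982.2 FPKM in vehicle libraries and 968.69, 959.04, 884.72 and 872.28 FPKM in combination libraries. The groups overlapped, the log2 fold change was 0.03 with a 95% interval from -0.15 to 0.21, and the gene was held under both scalings, although it passed as lower with median-of-ratios scaling (-0.24, adjusted p = 0.0267). Gch1, the first enzyme of tetrahydrobiopterin synthesis, rose by 2.03 and is a restraining gene, as is Hmox1 in this list. Alox5, a lipoxygenase (2.75), and Acsl4, an acyl-CoA synthetase that activates polyunsaturated fatty acids (1.93), rose among the promoting genes. Both Gch1 and Alox5 read under 1 FPKM in all vehicle libraries and met the filter on low values only through treated libraries. Their counts as higher were therefore favoured by the filter. Another 1 restraining and 3 promoting genes in the table did not pass that filter. Vdac3, a channel of the outer mitochondrial membrane, was held at 85.7 ± 1.11 against 89.8 ± 3.96 FPKM, which turned to a log2 difference of -0.20 with median-of-ratios scaling.

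Genes of protein synthesis and of the integrated stress response were mostly higher. All 48 cytosolic ribosomal protein genes rose, 21 at least 2-fold, with a median of 0.94, and 46 did so with median-of-ratios scaling. Their summed level was 15572 to 16683 FPKM in vehicle and 28241 to 32425 FPKM in combination libraries. Rpl12 was the highest (1.41) and Rps6 the lowest (0.35), and many of these genes have processed pseudogenes, so single values are uncertain. Proteasome genes were higher in 26 and lower in none of 33 cases, or 16 and 8 with median-of-ratios scaling. Over all tested genes 56.6% were higher and 22.6% lower, or 39.6% and 35.6% with that scaling. The proteasome median was 0.39 against 0.263 over all tested genes, or 0.12 against 0.036 with that scaling. Of the 33, 20 were held under both, a share above the 38.5% of all genes entered. Psmd8 was highest (1.08) and Psme4 lowest (-0.17, adjusted p = 0.0537), and the latter passed as lower with median-of-ratios scaling (-0.43, adjusted p = 0.000115). Integrated stress response genes were higher in 17 and lower in 2 of 19 cases, from the transcription factor gene Atf3 (4.04) to the serine hydroxymethyltransferase gene Shmt2 (-1.34). Cholesterol synthesis genes were lower in 15 and higher in 4 of 22 cases, or 18 and 2 with median-of-ratios scaling, with the sterol demethylase gene Cyp51 lowest (-2.68). Clock genes went both ways, 8 higher and 8 lower of 18, or 6 and 10 with median-of-ratios scaling, with Arntl, which encodes the activator BMAL1, highest (2.15) and Dbp, one of its output genes, lowest (-3.76).

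The abundant genes that stood near vehicle were varied in function. The 10 with the highest levels among those held under both scalings were Gpx3, Ftl1, Gapdh, Ubb, Cox8a, Ppia, Cox6a1, Ldhb, Prdx5 and Guca2b. Gpx3 (NCBI gene 14778), the secreted glutathione peroxidase made by the proximal tubule, read 31678, 33203, 29503 and 33171 FPKM in vehicle libraries and 32240, 31763, 30471 and 31824 FPKM in combination libraries. It was the most abundant transcript of the pretreated kidneys, and its groups overlapped (-0.01, 95% interval -0.27 to 0.25). Ftl1, the ferritin light chain, stood at 3606 ± 163 against 3580 ± 247 FPKM, the glycolytic enzyme gene Gapdh at 3194 ± 100.2 against 2983 ± 129 FPKM, and the lactate dehydrogenase gene Ldhb at 1165 ± 33.4 against 1104 ± 48.6 FPKM. The peroxiredoxin gene Prdx5 stood at 971 ± 21.8 against 923 ± 77.4 FPKM. Several of these genes have processed pseudogenes, and their single values are uncertain. Ubb, a ubiquitin gene (0.34), and Ppia, cyclophilin A (0.39), passed as higher within the margin, a call that median-of-ratios scaling removed. The other 8 did not pass with the deposited FPKM, and with median-of-ratios scaling 6 of them passed as lower, namely Ftl1, Gapdh, Cox8a, Cox6a1, Ldhb and Prdx5. A separate list of 20 genes often taken as constitutive had 11 higher, 5 lower and 8 held under both scalings. These counts were near the shares over all genes, 56.6% higher, 22.6% lower and, of those entered, 38.5% held under both scalings. With median-of-ratios scaling alone 8 of the list were higher and 9 lower. Its members ran from the ribosomal gene Rplp0 (1.253) to Sdha of complex II (-1.05).

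Some genes that differed from vehicle also differed between the pretreated and the cisplatin kidneys, a comparison in which 2.21% of the tested genes passed, against 78.1% between cisplatin and vehicle. The comparisons share libraries, so the values of the 3 groups are given side by side. Napsa (NCBI gene 16541), an aspartic protease of the proximal tubule, read 299 ± 13 FPKM in combination, 1100 ± 187 FPKM in cisplatin and 891 ± 140 FPKM in vehicle kidneys. Uroc1, the urocanase of histidine breakdown, stood at 4.73 ± 0.639, 15.0 ± 1.85 and 13.6 ± 0.592 FPKM in the same order, and Cyp2d9, a cytochrome P450 with close paralogs, at 12.8 ± 1.55, 65.9 ± 8.32 and 95.3 ± 24.6 FPKM. In these 3 genes the pretreated kidneys stood below both other groups. For Cyp2d9 the cisplatin group lay between, as it was also lower than vehicle (cisplatin minus vehicle -0.50, adjusted p = 0.00674, limma). For Napsa the cisplatin group was higher than vehicle (0.30, adjusted p = 0.0490, limma). Slc5a8, a lactate and short-chain fatty acid transporter, stood at 4.88 ± 0.576, 18.5 ± 3.74 and 58.6 ± 1.77 FPKM, and the zinc transporter gene Slc39a11 at 1.2 ± 0.107, 3.57 ± 0.529 and 11.7 ± 0.299 FPKM. Here too the pretreated group was the lowest, and the cisplatin group lay between as for Cyp2d9.

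In the other direction, Mustn1, a small nuclear protein gene of the musculoskeletal system, stood at 5.85 ± 0.266 FPKM in combination, 3.10 ± 0.0947 FPKM in cisplatin and 3.00 ± 0.373 FPKM in vehicle kidneys. Foxi1, the transcription factor of intercalated cells, stood at 23.8 ± 1.29, 17.3 ± 1.03 and 15.5 ± 1.19 FPKM. Renbp, the renin-binding protein gene, stood nearer vehicle than the cisplatin group did, at 41.2 ± 2.12, 32.6 ± 0.503 and 47.5 ± 2.19 FPKM, and was held within 1.5-fold of vehicle. It also passed as lower than vehicle (-0.20), by more with median-of-ratios scaling (-0.47). Ubald1 stood at 34.2 ± 0.905, 28.1 ± 0.792 and 36.9 ± 1.44 FPKM and was also held. Its call as lower than vehicle (-0.10, adjusted p = 0.0449) was lost without vehicle library 1, 2 or 4, combination library 1, 3 or 4, or cisplatin library 2 or 4, with log2 fold changes from -0.11 to -0.08. The call was also lost after rescaling to TPM (-0.07). Ubald1 was lower by more with median-of-ratios scaling (-0.37, adjusted p = 4.05e-06), edgeR (-0.41) and DESeq2 (-0.42).

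**Figure D4:**
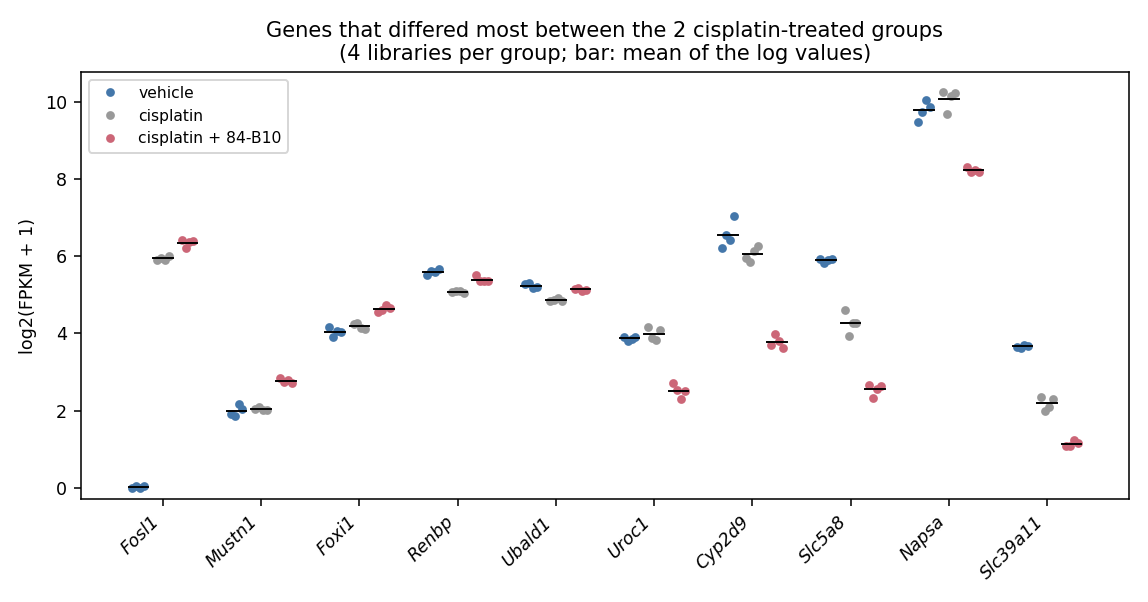
Each point is 1 library as log2(FPKM + 1), with vehicle in blue, cisplatin in grey and combination in red. A bar marks the mean of the log values. The 10 genes are the 5 each way with the largest moderated statistic between the combination and cisplatin groups. They were taken from genes that passed against vehicle and reached a mean of 5 FPKM in at least 1 group. Napsa, Uroc1, Cyp2d9, Slc5a8 and Slc39a11 are lower in the combination libraries than in either other group plotted, and Renbp and Ubald1 lie between the cisplatin and vehicle levels.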

How the data were processed

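RNA of mouse kidney was sequenced in 12 libraries, 4 per group by the treatment label, labelled biological replicates. The submitters' processing notes list RSEM 1.2.12, HISAT2 2.0.4 and Bowtie2 2.2.5 with no role for any. The authors deposited FPKM per library, rounded to 2 decimals, and estimated counts (expected counts) for 10 libraries, including all 8 compared here. No genome build is given in the sources used here, nor a strand setting. A block of 14 per-sample columns under absent or displaced headings was not used. The log2(FPKM + 1) values were fitted in R 4.3.3 with limma 3.58.1 (3 group means, 12 libraries, mean trend), for genes of at least 1 FPKM in at least 4 libraries, with two-sided Benjamini-Hochberg adjustment. Fold changes on this scale are understated for low genes. Genes under 1 FPKM in all vehicle libraries, such as Sprr1a, Krt20, Fosl1, Atf3 and Arntl, met the filter only through treated libraries. That favoured their counts as higher. The equivalence test used 2 one-sided moderated tests at a 1.5-fold margin. FPKM were kept as the main values although counts were available. edgeR 4.0.16 and DESeq2 1.42.0 on rounded estimated counts, other scalings, filters and pseudocounts, the replicate block and each library left out were alternatives. The steps were tested on simulated data. No FPKM columns were identical, and the counts of any pair of libraries within a group differed by more than sampling noise (chi-square divided by its degrees of freedom at least 4.35). The p-values reflect only how these libraries varied.

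The gene lists (37, of 922 genes, 7 not in the table) and tests were chosen with earlier results of these data known. Named genes were 17 anchors, of the passing genes without overlap the 8 that rose most and the 8 that fell most and that reached a mean of 5 FPKM, in 17 lists the 2 passing members with the largest statistic and the most abundant one not passing, the 10 most abundant held genes, and 5 each way by the difference from cisplatin. The highest and lowest members of the other lists were chosen once the values had been seen. Not every gene that these rules name is reported here.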

Additional observations from a re-analysis of the deposited data

Results flagged for a closer look

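Among 117 named genes, 234 sets of 4 libraries were searched for a library whose gap to its nearest neighbour exceeded Dixon's 95% critical share of the whole range, which chance gives in about 1 of 20 sets, and 14 were found. In combination library 1, Cdkn1a stood at 582.11 FPKM (663.36 to 677.01 in the other 3), Slc12a3 at 148.94 (97.22 to 104.2), Renbp at 44.36 (40.03 to 40.24) and Sdha at 151.47 (124.09 to 128.34). In combination library 2, Pzp stood at 0.27 FPKM (0.44 to 0.45) and Slc16a7 at 8.42 (6.95 to 7.19), and in combination library 4 Clic5 stood at 11.81 (8.95 to 9.16). In vehicle library 3, Clic5 stood at 19.44 FPKM (18.54 to 18.68), Cdk6 at 2.74 (2.47 to 2.51), Atf3 at 0.84 (0.28 to 0.36) and Dbp at 105.41 (115.92 to 117.5). In vehicle library 4, Krt20 stood at 0.48 FPKM (0.1 to 0.13) and Idh2 at 300.72 (262.1 to 267.13), and in vehicle library 2 Cxcl2 stood at 0.06 with the other 3 listed at 0.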

How the results depend on the processing

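The counts of calls depended on the scaling and on the tool. The 7037 higher genes became 4577 with quantile normalization. The 2810 lower genes became 4732 with quantile normalization, 4425 with median-of-ratios scaling, 5051 with edgeR and 5115 with DESeq2 on the counts of the 8 libraries, and those at least 2-fold lower (687) became 1514 with edgeR and 1728 with DESeq2. The count tools also tested more genes (14209 and 18590) on another input with another filter and constant, and the part of each was not tested. Median-of-ratios scaling alone gave 1008 at least 2-fold lower and a pseudocount of 0.1 alone 828. The held genes numbered 1334 at a narrower margin of 0.32 and 6482 at a wider margin of 1 on the log2 scale. Leaving out each of the 12 libraries in turn gave 6836 to 7079 higher, 2641 to 2841 lower, 1586 to 1672 at least 2-fold higher, 667 to 721 at least 2-fold lower, 9301 to 9673 that did not overlap and 3892 to 4154 held.

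Of 117 named genes, none reversed when a library was left out. Reversals came under scaling and count-based settings: under median-of-ratios scaling, edgeR and DESeq2 in this order, Gpx4 was at -0.24, -0.25 and -0.26, Car2 at -0.20, -0.23 and -0.24, Vdac3 at -0.20, -0.22 and -0.23, Ccnd3 at -0.22, -0.28 and -0.29, and Pex11a at -0.0167, -0.0307 and -0.0402. Gpx3 was at 1.24 with quantile normalization, which gives the top-ranked gene of each library the same value. List medians reversed under the same 3 settings for the principal cell (-0.17, -0.24 and -0.25), glycolysis (-0.14, -0.15 and -0.16), ferroptosis promoting (-0.0021, -0.0109 and -0.0202) and constitutive lists (-0.11, -0.13 and -0.14), for the liver and muscle list with edgeR (-0.013), DESeq2 (-0.02) and quantile normalization (-0.10), and for the principal cell list with quantile normalization (-0.16).

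The samples share only replicate numbers: deviations of same-numbered vehicle and combination libraries correlated at -0.023 to 0.0763, and combination library 3 correlated best with vehicle library 2 (0.0921). With the replicate number as a block 7014 genes were higher, 2812 lower, 1615 and 687 at least 2-fold and 4117 held, and of the named genes Ubald1 no longer passed and Psme4 now did. Estimates at very low levels, such as Fosl1 and Cxcl2 in vehicle libraries, are limited by depth.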
